A study of Xenopus tropicalis x Xenopus laevis and Xenopus laevis and Xenopus tropicalis with 8 samples.

Results

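The t egg × l sperm cross (te × ls) joins an X. tropicalis egg with X. laevis sperm, so that any X. laevis RNA made in the embryo has to come from chromosomes that the sperm brought in. Whole embryos were collected 9 h after fertilization, which the study calls stage 9, and their polyadenylated RNA was sequenced. There were 3 groups in the comparison described here, with n = 2 libraries in each, numbered 1 and 3: X. laevis embryos from X. laevis eggs and sperm, te × ls embryos, and X. tropicalis embryos from X. tropicalis eggs and sperm, which hold no X. laevis genome and give the background. The reciprocal cross, in which the egg was X. laevis and the sperm X. tropicalis (le × ts, n = 2), is given beside them where it was measured for the same transcripts. The labels name no further treatment or genotype for any group. Embryos of the te × ls cross do not survive beyond the blastula stages, and they receive 1 haploid X. laevis genome at fertilization where X. laevis embryos receive 2. Whether te × ls embryos kept all of it was not measured here. The members are the X. laevis transcripts for which neither X. laevis library was under 1 TPM (the transcript's share of its library, scaled to a fixed total), which were 15895 of the 20611 X. laevis transcripts and of the 34647 transcripts of both species. They carry 9646 gene symbols, and 660 of them have no symbol.

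In a frog embryo the first divisions run on RNA and protein that the mother stored in the egg. The embryo's own genome is switched on at the midblastula transition, and the first genes to be read include transcription factors and secreted signals that set up the germ layers and the dorsal-ventral axis. At stage 9 both sources are present, and in an embryo of a single species they give the same RNA. In te × ls embryos they differ by species, since the egg's RNA is X. tropicalis and the X. laevis sequence arrives with the sperm.

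For every member a ratio was taken, the te × ls mean minus the X. tropicalis mean, divided by the X. laevis mean. A ratio of 1 is the level of X. laevis embryos, and 0.5 is the share of X. laevis genome copies that te × ls embryos receive at fertilization relative to X. laevis embryos. TPM is a share of each library, so a ratio compares shares of RNA in embryos from eggs of 2 species and not molecules per embryo. Fewer cells that transcribe a gene and less RNA per cell cannot be told apart in whole embryos.

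X. laevis transcripts made up 99.7% of all TPM in both X. laevis libraries, 0.355% and 0.429% in te × ls replicates 1 and 3, and 0.124% and 0.230% in X. tropicalis replicates 1 and 3. Over the members alone these te × ls libraries held 3329 and 3982 TPM, and the X. tropicalis libraries held 1229 and 1796 TPM. In X. tropicalis replicate 3, 1 transcript of the mitochondrial gene mt-atp6, outside the members, held 495 of the 2302 TPM of X. laevis transcripts. TPM keeps no read counts. From the commonest ratio of very low values, te × ls replicates 1 and 3 had 1.68 and 1.24 times the reads of X. laevis replicate 1. X. tropicalis replicates 1 and 3 had 1.10 and 0.362 times. The last 2 values rest only on the transcripts at the commonest ratio, 24.0% of 25 and 36.8% of 19. Transcripts known as markers of later or adult cell types were summed in te × ls replicates 1 and 3 and in X. laevis replicates 1 and 3. Several of these sets were present in X. laevis embryos of this stage, so the sums do not show the presence or absence of a cell type. The 1 blood marker transcript was at 0 in both te × ls libraries, and 9 testis and sperm markers summed to 0.243 and 0.108 TPM against 128 and 101 TPM. The sums were 1.59 and 1.96 TPM against 502 and 418 TPM for 4 larval keratin transcripts, and 0.029 and 0.580 TPM against 1.19 and 2.51 TPM for 4 muscle transcripts. For 2 liver transcripts they were 0.069 and 0.169 TPM against 7.03 and 5.51 TPM. The 4 neuron transcripts were low in both groups, at 1.39 and 1.47 TPM against 3.19 and 4.91 TPM, a larger share of the X. laevis level than for the other markers.

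Of the 15895 members, 14615 (91.9%) had a ratio under 0.01, and 6094 of these were at 0 in both te × ls libraries. A ratio of 0.01 to 0.1 was found for 984 members, 0.1 to 0.5 for 231, and 0.5 or more for 65, of which 15 reached 1 or more. The median ratio over all members was 0. The 65 transcripts near the X. laevis level carry 47 symbols, and among those at 5 TPM or more in X. laevis were the neural factors irx1, zic1 and sox2, the endoderm factors sox17a, sox17b and bix4, and the ventral and organizer genes bmp4, ventx2, id3 and admp. The ratio divides by the X. laevis level, and the share of members at 0.1 or more went from 7.34% at an X. laevis mean of 1 to 2 TPM to 0.114% at 100 to 200 TPM and 0 above 500 TPM. Of the 65, 44 had an X. laevis mean under 5 TPM.

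**Figure D1:**
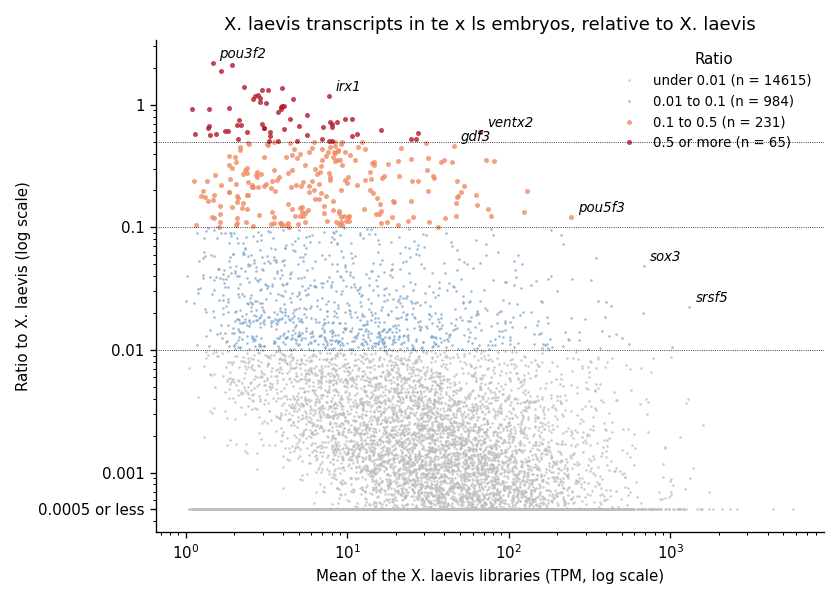
Each point is 1 X. laevis transcript, with the mean of the X. laevis libraries (TPM, log scale) on the horizontal axis and the ratio of te × ls to X. laevis (log scale, background subtracted, values of 0.0005 or less drawn at the lower edge) on the vertical axis. Dotted lines mark ratios of 0.5, 0.1 and 0.01; 65 transcripts lie at 0.5 or more, and 14615 lie under 0.01.

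The X. laevis signal of te × ls embryos was tested first against X. tropicalis embryos, a comparison in which the choice of members had no part. Both te × ls libraries lay above both X. tropicalis libraries for 3463 members (21.8%) and below them for 484 (3.04%), where over all 34647 transcripts of both species the shares were 15.2% and 6.19%. Of the 5252 transcripts of both species that lay above, 4135 were X. laevis. For the X. tropicalis transcripts, which both groups inherit from the egg, the shares were 7.96% and 11.8%. Members at 0 numbered 7788 and 9033 in te × ls replicates 1 and 3, and 12220 and 13045 in X. tropicalis replicates 1 and 3. By the estimate above the te × ls libraries were the deeper ones, and the part of depth in these shares was not tested. Every one of the 65 transcripts at a ratio of 0.5 or more was among the 3463, as were 227 of the 231 at 0.1 to 0.5, 756 of the 984 at 0.01 to 0.1 and 2415 of the 14615 under 0.01; the ratio and this count use the same libraries, and nothing is read from these counts by ratio.

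limma on log2(TPM + 1) tested the 12073 transcripts for which 2 or more of the 4 libraries reached 1 TPM. Called higher were 0 transcripts (0%), X. laevis or X. tropicalis, at an adjusted p under 0.05 with a difference above 1 on the log2 scale. The lowest adjusted p was 0.0609. Of the 480 members tested, 357 (74.4%) had both te × ls libraries above both X. tropicalis libraries and a log2 difference above 1. Over all 12073 transcripts tested there were 400, and among the 11559 X. tropicalis transcripts there were 9 (0.0779%). Most of the 480 members passed the filter through the te × ls libraries, where they are high. Their direction is therefore largely built in, and nothing is drawn from this count. The other 15415 members were too low to be tested. With n = 2 the call turned on the settings, and a pseudocount of 0.1 in place of 1 gave 214 members called higher. A block for the replicate number gave 304, although the labels do not say that the numbers pair libraries. Same-numbered te × ls and X. tropicalis libraries did deviate together, with r = 0.842 over the transcripts tested and 0.335 over the members.

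Neural genes were among the members near the X. laevis level, and irx1 had the highest ratio of the named members with an X. laevis mean of 5 TPM or more. irx1, an Iroquois homeodomain factor of the neural plate, had 10.9 TPM in X. laevis replicate 1 and 4.45 TPM in replicate 3, and 8.48 and 9.78 TPM in the te × ls libraries in the same order, which is kept below. It was at 0 in both X. tropicalis libraries, and its ratio was 1.19. The te × ls values lay between the X. laevis values, and the limma difference from X. laevis was 0.33 on the log2 scale (SE 0.43, adjusted p = 0.496). zic1, a zinc finger factor that marks the prospective neural plate, had 2 transcripts. The more abundant one was at 22.7 and 9.81 TPM in X. laevis and at 9.38 and 11.0 TPM in te × ls, a ratio of 0.625, and the other had a ratio of 1.19. The SoxB1 factor sox2, which marks neural progenitors, was at 8.99 and 2.26 TPM in X. laevis and at 2.76 and 6.53 TPM in te × ls, again with overlapping groups and a ratio of 0.826.

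The highest ratios of all members belonged to transcripts of low level. hes5, a bHLH repressor of the Notch pathway, was at 2.39 and 1.48 TPM in X. laevis and at 3.18 and 4.91 TPM in te × ls, a ratio of 2.09. The POU factor pou3f2 and the Wnt receptor fzd8, named after their values were seen, had ratios of 2.21 and 1.89. In these 3 members of the 15895 both te × ls libraries lay above both X. laevis libraries, and limma called 0 members higher in te × ls than in X. laevis. The limma adjusted p for hes5 was 0.0505, with a log2 difference of 0.78 (SE 0.27), and for the pou3f2 and fzd8 transcripts it was 0.137 and 0.116. The other member transcripts of pou3f2 and fzd8 had lower ratios, of 0.552 and 0.916.

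Among ventral genes, bmp4, the BMP ligand that promotes ventral fates, was at 12.1 and 5.09 TPM in X. laevis and at 5.27 and 7.25 TPM in te × ls (ratio 0.725) in one of its 2 transcripts. The other bmp4 transcript was at 7.62 and 7.60 TPM in X. laevis and at 3.08 and 3.22 TPM in te × ls (ratio 0.414), and limma called it lower (log2 difference -1.05, SE 0.09, adjusted p = 0.000555). ventx2, a homeodomain repressor that acts downstream of BMP signalling, had 5 member transcripts. The most abundant was at 97.5 and 35.6 TPM in X. laevis and at 24.5 and 56.0 TPM in te × ls, with 0.106 and 0.331 TPM in X. tropicalis, and its ratio of 0.602 was the highest of the 5. The lowest was 0.180. That transcript was at 65.3 and 31.8 TPM in X. laevis but at 16.5 TPM in te × ls replicate 1 and 0.958 TPM in replicate 3, so its ratio rests on 1 library. id3, a dominant negative HLH protein induced by BMP, had 2 transcripts at ratios of 0.652 and 0.521, the second at 37.8 and 15.2 TPM in X. laevis and at 4.46 and 23.2 TPM in te × ls. The epidermal and neural crest factor tfap2a was at 11.0 and 5.08 TPM in X. laevis and at 5.46 and 5.17 TPM in te × ls, a ratio of 0.658.

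Organizer and germ layer genes also came near the X. laevis level. admp, a BMP family ligand made in the organizer, was at 12.9 and 8.67 TPM in X. laevis and at 8.54 and 7.99 TPM in te × ls, a ratio of 0.767, and its other transcript was at 0.729. sp5l, named for the Sp family of zinc finger factors, was at 11.2 and 8.11 TPM in X. laevis and at 7.09 and 7.86 TPM in te × ls (ratio 0.773). For both genes the te × ls libraries lay just under the X. laevis libraries, with limma differences of -0.32 (SE 0.21, adjusted p = 0.209) for admp and -0.32 (SE 0.18, adjusted p = 0.165) for sp5l. The endoderm HMG box factor sox17a had 3 transcripts, at ratios of 0.660, 0.372 and 0.195, and sox17b had 2, at 0.525 and 0.335. The more abundant sox17b transcript was at 33.7 and 15.8 TPM in X. laevis and at 9.49 and 16.5 TPM in te × ls. bix4, a Mix family homeodomain factor of endoderm and mesoderm, was at 15.4 and 7.63 TPM and at 5.56 and 7.75 TPM in the same groups (ratio 0.578).

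**Figure D2:**
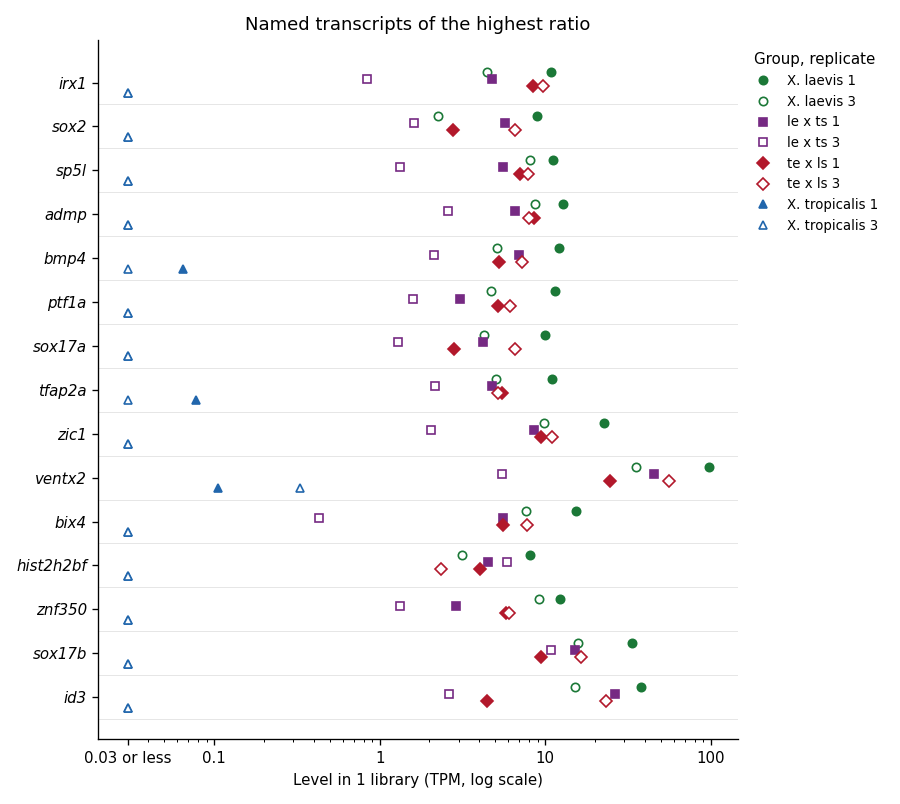
Level in each library (TPM, log scale, values of 0.03 or less drawn at the left edge) of 15 named transcripts, ordered by ratio, for X. laevis, le × ts, te × ls and X. tropicalis embryos; filled marks are replicate 1 and open marks replicate 3. For irx1 the te × ls points at 8.48 and 9.78 TPM lie between the X. laevis points, and for most of the 15 the X. tropicalis points lie at the left edge.

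The remaining transcripts of this set were ptf1a, a bHLH factor of pancreas and neural precursors, at a ratio of 0.702, the histone H2B transcript hist2h2bf at 0.566 and a transcript of the zinc finger gene znf350 at 0.554, the highest of its 22. The ratios just inside 0.5 were those of rhov (0.507), nodal6 (0.507) and tfap2a (0.503, its second transcript). Just outside were dusp6 (0.499), a phosphatase of the FGF and MAP kinase pathway, a transcript with no symbol (0.498) and the Notch pathway repressor hes1 (0.497). Against X. laevis limma called 0 of the 65 transcripts lower, at a median log2 difference of -0.32 and a median SE of 0.33. Of the 65, 3 had an unadjusted p under 0.05 in that test. The 65 were picked for a ratio of 0.5 or more in the same libraries, and a lower call needed a log2 difference below -1. That choice left little room for calls, and 0 calls does not show that the levels were equal.

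The library that stood highest in each group differed between groups for these transcripts. X. laevis replicate 1 exceeded replicate 3 in 52 of the 65, with a median ratio of 1.68 between the 2 libraries, and le × ts replicate 1 exceeded replicate 3 in 45. In te × ls, replicate 3 exceeded replicate 1 in 54 of the 65. Over all members, X. laevis replicate 1 exceeded replicate 3 in 8652 of 15895, with a median ratio of 1.03, and le × ts replicate 1 exceeded replicate 3 in 9438. In te × ls, replicate 3 exceeded replicate 1 in 4768 of all members, of which 6094 were at 0 in both te × ls libraries. Among the 231 members at a ratio of 0.1 to 0.5, these counts were 157 for X. laevis, 129 for le × ts and 159 for te × ls. The part of these differences between replicates in the ratios was not tested. Taken within replicate number 1 and within replicate number 3, both ratios were 0.5 or more for 28 of the 65, and leaving out X. laevis replicate 1 moved the count from 65 to 105. Without X. laevis replicate 3, limma called lower, among those named, bix4, hist2h2bf, sox17b, the more abundant zic1 transcript, both id3 transcripts and both ventx2 transcripts of the 65, at log2 differences between -1.76 and -1.03, where with both libraries it called 0 of the 65. For irx1 the ratios within the numbers were 0.778 and 2.20, for zic1 (the more abundant transcript) 0.413 and 1.12, and for admp 0.663 and 0.921.

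The X. laevis transcripts that added most TPM to te × ls embryos were not only those of the highest ratio. The most abundant ventx2 transcript, at a ratio of 0.602, was among them, beside transcripts of lower ratio. In 7726 members the te × ls mean lay above the X. tropicalis mean, and these differences summed to 2532 TPM. The top 10 held 10.7% of that sum, the top 100 held 39.1% and 178 members held 50%. Members below the background summed to -389 TPM, and the differences of all members to 2143 TPM. The shares are of the positive differences only. pou5f3, the POU factor family that keeps blastula cells pluripotent, was at 212 and 274 TPM in X. laevis and at 26.5 and 32.8 TPM in te × ls in 1 of its 7 transcripts, with 0 and 0.307 TPM in X. tropicalis. The ratio of this transcript was 0.121, and the limma difference of te × ls from X. laevis was -2.99 on the log2 scale (SE 0.25, adjusted p = 0.000644). The 7 ratios of pou5f3 ran from -0.000184 to 0.185, and the most abundant transcript, at 751 and 730 TPM in X. laevis, was at 0.323 and 0.161 TPM in te × ls. The organizer homeobox gene not, later a marker of the notochord, had 2 transcripts of this kind. One was at 77.5 and 68.1 TPM in X. laevis and 18.1 and 33.4 TPM in te × ls (ratio 0.354), and the other at 139 and 121 TPM and at 17.1 and 34.7 TPM (ratio 0.198).

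The TGF-beta ligand gdf3 was at 66.3 and 25.8 TPM in X. laevis and at 15.6 and 26.9 TPM in te × ls (ratio 0.461), and the Ras-like gene rasl11b had a ratio of 0.484. cxcr4, the receptor for the chemokine CXCL12, was at 44.8 and 34.4 TPM and at 11.3 and 17.0 TPM (ratio 0.357). sox3, a SoxB1 factor that the egg also stores, was at 655 and 713 TPM in X. laevis and at 23.9 and 43.4 TPM in te × ls, so that one of the larger contributions in TPM had a ratio of 0.0485. srsf5, an SR splicing factor, was at 1295 and 1311 TPM and at 16.8 and 41.6 TPM, a ratio of 0.0222. Housekeeping transcripts among the 15 largest contributions were eef1a1, the elongation factor that brings tRNA to the ribosome, at ratios of 0.0947 and 0.0871, and sat1, a polyamine acetyltransferase, at 0.0730.

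Grouped by function, the lists differed in how many of their members came near the X. laevis level. Of 32 member transcripts of mesendoderm and organizer factors, 8 had a ratio of 0.5 or more, 15 lay at 0.1 to 0.5, 3 at 0.01 to 0.1 and 6 under 0.01, with a median of 0.257. Ventral and BMP pathway factors had 7, 10, 7 and 9 of 33 in the same order (median 0.142), and pluripotency and early neural factors had 8, 17, 24 and 25 of 74 (median 0.0330). The Nodal and FGF signals, which induce mesoderm and endoderm, were split: 2 of 31 lay at 0.5 or more and 17 under 0.01, with a median of 0.00591. Across all members these shares were 0.409%, 1.45%, 6.19% and 91.9%. These are counts of transcripts, some from the same gene, and no test was made of a list.

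Histones also reached the upper range, with 6 of 38 at 0.5 or more and 9 at 0.1 to 0.5. hist2h2ab, an H2A transcript, was at 4.05 and 2.42 TPM in X. laevis and at 4.55 and 4.01 TPM in te × ls (ratio 1.32), while hist1h2am, at 1841 and 1621 TPM in X. laevis, was at 0.353 and 0.477 TPM in te × ls and at 0.270 and 1.69 TPM in X. tropicalis. Most histone messages end without a poly(A) tail and their gene copies are alike, so these values, from poly(A) RNA and uniquely mapped reads, are uncertain.

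Lists of genes whose RNA the egg stores had most members under 0.01, as did the members as a whole (91.9%). Of 55 oocyte and egg genes 53 had a ratio under 0.01 (96.4%) and of 32 germ plasm RNAs 31 (96.9%). The share was below that of all members for cell cycle genes of cleavage, with 61 of 73 (83.6%), and for ribosomal protein transcripts, with 156 of 189 (82.5%). The testis and sperm genes were under 0.01 in all 26 members, with tekt1, a tektin of sperm flagella and cilia, the highest at 0.00996. These 26 members summed to 1122 and 1083 TPM in X. laevis replicates 1 and 3. A ratio to that level cannot show whether the sperm cell carried in RNA. SR splicing factors lay between, with 2 of 29 at 0.1 to 0.5, 12 at 0.01 to 0.1 and 15 under 0.01. Of 258 transcripts of znf zinc finger genes 222 lay under 0.01, and the highest ratio was that of znf750, 1.37. Among 47 stress and p53 response transcripts 6 lay at 0.1 to 0.5, led by gadd45a at 0.360, and 31 under 0.01.

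**Figure D3:**
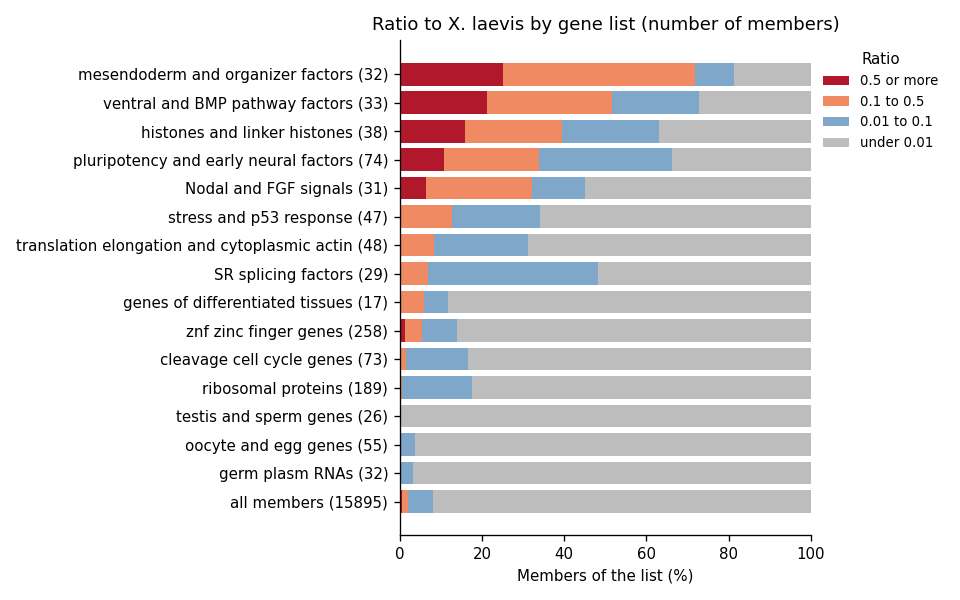
Share of the member transcripts of each gene list (%, with the number of members in brackets) at a ratio of 0.5 or more, 0.1 to 0.5, 0.01 to 0.1 and under 0.01, with all 15895 members at the bottom. Mesendoderm and organizer factors have 23 of 32 at 0.1 or more, and oocyte and egg genes, germ plasm RNAs and testis and sperm genes have 0.

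The most abundant RNAs of X. laevis embryos were at or near the background in te × ls. Over the 100 most abundant members, the median te × ls level was 0.0638% of the X. laevis level, the median in X. tropicalis embryos was 0.0382%, and the highest ratio was 0.0485. gp1bb, named for the human platelet receptor subunit of that symbol, was at 5136 and 6441 TPM in X. laevis, at 2.13 and 1.82 TPM in te × ls and at 1.67 and 2.07 TPM in X. tropicalis. Its te × ls and X. tropicalis values overlapped, and the limma difference of te × ls from X. laevis was -10.92 on the log2 scale (SE 0.30, adjusted p = 2.23e-05). ccnb1, the B-type cyclin that drives entry into mitosis, was at 2005 and 2188 TPM in X. laevis, at 0.662 and 0.180 TPM in te × ls and at 0.505 and 2.83 TPM in X. tropicalis. The tight junction gene cldn6 had 2 such transcripts among its 5, the higher at 2318 and 2392 TPM in X. laevis and at 1.36 and 1.30 TPM in te × ls. The cyclins ccna1 and ccnb2, the glutamine synthetase gene glul and the lipid droplet gene plin2 lay at ratios between -0.000268 and 0.00110.

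Of these 100 members 96 had a ratio under 0.01. In 38 of the 96 (39.6%) both te × ls libraries lay above both X. tropicalis libraries, and in 7 they lay below. The shares above and below were 21.8% and 3.04% over all members, and 15.2% and 6.19% over all transcripts of both species. The part of level and depth in these counts was not tested. gmnn, which encodes geminin, an inhibitor of replication licensing, was at 1264 and 1298 TPM in X. laevis, at 3.53 and 7.91 TPM in te × ls and at 0.7 and 0.539 TPM in X. tropicalis. slc16a3, a monocarboxylate transporter, was at 4.42 and 6.003 TPM in te × ls against 0.543 and 0.505 TPM in X. tropicalis, and rrm2b, a ribonucleotide reductase subunit, at 4.28 and 4.77 TPM against 0.387 and 0.893 TPM. In these 3 genes the groups did not overlap. c20orf112 showed the opposite case, with 18.7 and 30.7 TPM in te × ls and 20.05 and 26.98 TPM in X. tropicalis, a background as high as the signal in embryos with no X. laevis genome.

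**Figure D4:**
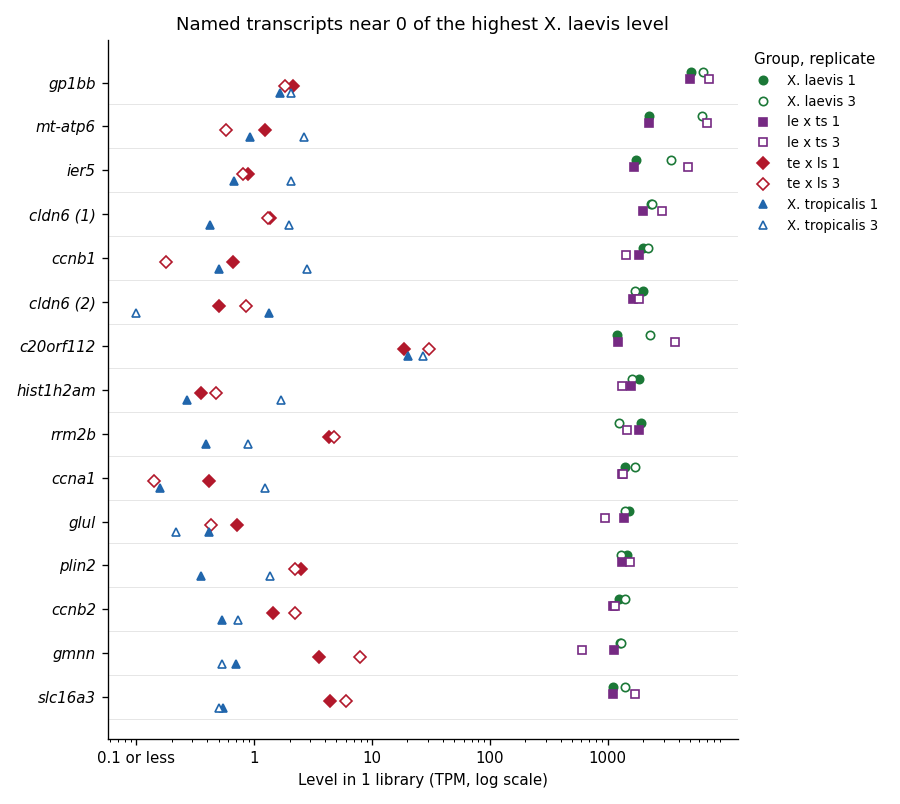
Level in each library (TPM, log scale, values of 0.1 or less drawn at the left edge) of the 15 named transcripts with a ratio under 0.01 and the highest X. laevis means; filled marks are replicate 1 and open marks replicate 3. X. laevis and le × ts points lie near or above 1000 TPM, and te × ls points lie among the X. tropicalis points except for transcripts such as gmnn, slc16a3 and rrm2b.

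Known maternal RNAs were also near 0. Named after their values were seen, the T-box factor vegt, stored at the vegetal pole of the egg, was at 398 and 433 TPM in X. laevis and at 1.29 and 1.51 TPM in te × ls for one transcript. The germ plasm gene velo1 was at 313 and 267 TPM and at 0.0890 and 0.0400 TPM, and nanos1, a translational repressor of the germ line, was at 191 and 241 TPM and at 0 in both te × ls libraries. Mitochondria pass through the egg, and mt-atp6, a subunit of the ATP synthase, was at 2260 and 6383 TPM in X. laevis against 1.24 and 0.575 TPM in te × ls and 0.920 and 2.65 TPM in X. tropicalis. An mt-co1 transcript at 299 and 351 TPM in X. laevis was at 0 in all te × ls and X. tropicalis libraries.

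Against X. laevis embryos, limma called 15678 of the 15895 members lower in te × ls, 0 higher and left 217 uncalled. The members were chosen for their level in X. laevis, so this count is a description. Over both species 15681 of the 26872 transcripts tested (58.4%) were called lower, and 3 of these were X. tropicalis transcripts. By ratio, 14551 of the 14615 transcripts under 0.01 were called lower, 968 of the 984 at 0.01 to 0.1 and 159 of the 231 at 0.1 to 0.5. The median log2 differences were -4.95, -2.96 and -1.43, beside a median of -2.57 over all transcripts tested. The ratio and the test use the same libraries, so the counts and medians by ratio restate the grouping. With X. laevis replicate 1 or 3 left out, 669 members passed the filter and 549 or 602 were called lower.

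Transcripts of 1 gene symbol did not always share a ratio. Of the 204 symbols with a member at 0.1 or more, 127 had several member transcripts. In 40 of these every member transcript was at 0.1 or more, and in 53 at least 1 was under 0.01. X. laevis is an allotetraploid with long (L) and short (S) homeologs of many genes, and the table does not say which transcript comes from which chromosome. The 3 transcripts of sox3 were alike, at 0.0558, 0.0553 and 0.0485. Those of sia2, a homeodomain factor that founds the organizer, ran from 0.683 to 0, and a transcript at 6.45 and 7.57 TPM in X. laevis was at 0 in both te × ls libraries, while another at 19.4 and 22.1 TPM was at 7.17 and 7.31 TPM. Of the 5 transcripts of hes7, a bHLH repressor of the Notch pathway, the highest ratio was 0.108. The most abundant hes7 transcript, at 70.7 and 65.5 TPM in X. laevis, was at 0 in both te × ls libraries.

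**Figure D5:**
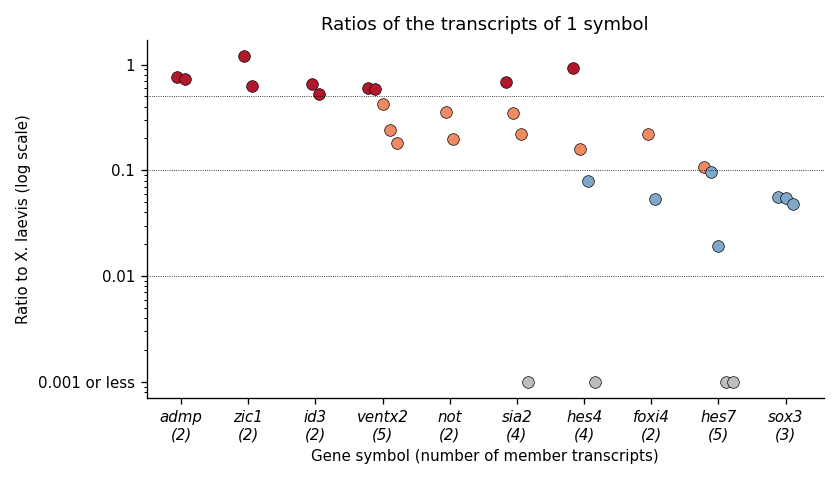
Ratio of te × ls to X. laevis (log scale, values of 0.001 or less drawn at the lower edge) of every member transcript of 10 gene symbols, picked after their values were seen, with the number of transcripts in brackets; dotted lines mark 0.5, 0.1 and 0.01. The 3 sox3 transcripts lie together at 0.0485 to 0.0558, and the transcripts of sia2 run from 0.683 down to 0.

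The study tested 12 factors that X. tropicalis sperm brings to le × ts embryos by expressing them in X. laevis embryos. For the X. laevis forms of these genes in te × ls, ventx2, id3, not and sia2 had transcripts at 0.1 or more, as did foxi4, a forkhead factor of ectoderm (0.218), klf17, a zinc finger factor of the Krüppel-like family (0.151), and hes7 (0.108). The highest ratios of the Mix family gene mix1, of tgif2, a repressor in the Nodal pathway, and of esr10, a Notch target, were 0.0310, 0.0356 and 0.0391. X. laevis transcripts of esr10 summed to 0 TPM in te × ls replicate 1 and 0.847 TPM in replicate 3, so the esr10 ratio rests on 1 library. The highest sox3 ratio was 0.0558. No X. laevis transcript of the table carries the symbol oct25, the remaining factor, so no ratio is given under that name. Whether X. laevis transcripts of this POU factor stand under another symbol, such as pou5f3, was not examined. mix1 was low in X. laevis as well, at 3.98 and 10.2 TPM in its more abundant transcript.

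In le × ts embryos the X. laevis genome comes from the egg in 1 haploid copy, and the egg's X. laevis RNA is present too. The ratio and the le × ts comparison both use the X. laevis libraries, so the values are set side by side and nothing is drawn from their relation. For the 65 transcripts at a ratio of 0.5 or more, the le × ts mean was a median 0.512 of the X. laevis mean, and both le × ts libraries lay below both X. laevis libraries in 32 (49.2%), beside 1338 of all 15895 members (8.42%). It was 0.760 for the 231 at 0.1 to 0.5 and 1.02 for the 14615 under 0.01. irx1 was at 4.77 and 0.839 TPM in le × ts replicates 1 and 3, admp at 6.60 and 2.57 TPM and ventx2 at 45.6 and 5.50 TPM in its most abundant transcript. gp1bb, by contrast, was at 5001 and 7286 TPM and ccnb1 at 1857 and 1444 TPM. Reads in le × ts replicate 3 were estimated at 0.439 times those in X. laevis replicate 1. The part of its depth in these values was not tested.

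Some transcripts near 0 in te × ls were nevertheless lower in le × ts than in X. laevis. With limits set after the values were seen (both le × ts libraries below both X. laevis libraries, an le × ts mean under 0.5 of the X. laevis mean, and an X. laevis mean of 5 TPM or more), there were 9 such transcripts among 12932 under a ratio of 0.01 (0.0696%), beside 11 of 21 at 0.5 or more (52.4%) and 33 of 138 at 0.1 to 0.5 (23.9%). The 9 included 2 transcripts of hes7 and 1 of hes4, another bHLH repressor of that family. The hes4 transcript was at 89.8 and 90.4 TPM in X. laevis, 44.5 and 27.8 TPM in le × ts and 0 in both te × ls libraries. It was 1 of 4 hes4 member transcripts, of which the highest ratio was 0.920. A transcript of wnt8a, a Wnt ligand of ventral and lateral mesoderm, was at 14.5 and 5.44 TPM in X. laevis, 5.04 and 0.284 TPM in le × ts and 0 in te × ls. All X. laevis transcripts of the symbol wnt8a summed to 0.466 and 0.274 TPM in te × ls replicates 1 and 3. A transcript of irf5, an interferon regulatory factor, was at 39.2 and 31.0 TPM in X. laevis, 18.4 and 10.8 TPM in le × ts and 0 in te × ls. Reads with any mismatch to the database were dropped by the authors, so a value of 0 does not distinguish a silent gene from a sperm allele that differs from the database sequence.

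In te × ls embryos the X. laevis RNA of a gene stands beside the RNA of the same symbol from X. tropicalis. For the 42 symbols with a member at 0.5 or more that also have X. tropicalis transcripts, X. laevis transcripts made up a median 46.6% of the symbol's TPM in te × ls. The median was 19.1% for symbols with a member at 0.1 to 0.5 and 0.0538% for those with a member under 0.01. The ratio and the share both rise with the X. laevis TPM of te × ls. The order of these medians is therefore largely built in, and nothing is drawn from it. irx1 summed to 16.2 and 19.2 TPM of X. laevis and 7.36 and 14.7 TPM of X. tropicalis transcripts in replicates 1 and 3, an X. laevis share of 68.8% and 56.6%. The share was 54.7% and 38.6% for zic1, 51.0% and 37.0% for admp and 58.1% and 40.2% for ventx2. It was lower in replicate 3 for each of these 4 genes, although the X. laevis sums themselves were higher there. At the other end, ccnb1 held 2.47 and 0.948 TPM of X. laevis beside 6995 and 6469 TPM of X. tropicalis transcripts, and gmnn held 4.31 and 8.87 TPM beside 2331 and 2922 TPM. Transcript models of the 2 species differ in number and length, so these shares depend on the database. No X. tropicalis background was subtracted from the X. laevis sums. For c20orf112, whose background was as high as its signal, the X. laevis share was 29.7% and 41.6%.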

How the data were processed

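Polyadenylated RNA of whole embryos was sequenced in 8 libraries, 2 per group (X. laevis, le × ts, te × ls, X. tropicalis), numbered 1 and 3. Groups and numbers were taken from the labels; the labels do not say that libraries came from separate crosses, so p-values measure the spread between these libraries. The series text speaks of more replicates than the 2 per group analysed here. According to the methods of the study, Bowtie aligned the reads to the pooled transcripts of both species, dropping reads with a mismatch or with several targets. The read-based test of the study was not repeated, since TPM keeps no reads. The submitters' processing notes also name BWA 0.7.10. The authors deposited TPM from RSEM, 1 value per transcript and library, and all 8 columns were read. With no genome used here, positions are not given.

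Members had a TPM of 1 or more in both X. laevis libraries. The ratio was grouped at 0.5, 0.1 and 0.01. limma 3.58.1 in R 4.3.3 was applied to log2(TPM + 1), which understates changes of low values, for transcripts that reached 1 TPM in 2 or more of the 4 libraries, with a mean trend, no block and Benjamini-Hochberg adjustment over both species; calls needed an adjusted p under 0.05 and a log2 difference above 1. The test was checked on simulated data. TPM sums to 999146 to 999534 per library and reads per library are unknown; they were compared between libraries through transcripts of 0.03 to 0.3 TPM, and no counting intervals are given.

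The members, the 15 gene lists and the rule for named transcripts were chosen with earlier results of these data known. The rule takes 15 named members each by ratio (X. laevis mean of 5 TPM or more), by TPM above background, and by X. laevis level with a ratio under 0.01, the 12 factors the study screened, the extremes of each list and the members next to 0.5. Alternatives were other pseudocounts and filters, a fit of all 4 groups, a replicate block, a fit without the mean trend, adjustment within X. laevis, another background, a 5 TPM limit for members, and each library left out in turn.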

Additional observations from a re-analysis of the deposited data

Results flagged for a closer look

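X. laevis transcripts that failed the limit of 1 TPM in both X. laevis libraries are in no comparison above. Of these 4716 transcripts, 34 were at 1 TPM or more in both te × ls libraries and under 1 TPM in both X. tropicalis libraries, and with the groups exchanged there were 0. They carry 30 symbols. Their median level was 1.91 TPM in te × ls and 0.825 TPM in X. laevis, a direction that the choice of transcripts builds in, since each had to miss 1 TPM in an X. laevis library and reach it in both te × ls libraries. Of the 34, 0 were at 0 in both X. laevis libraries. Transcription factors of embryonic patterning were among them. A second irx1 transcript was at 7.74 and 9.47 TPM in te × ls replicates 1 and 3, against 4.35 and 0.525 TPM in the same order in X. laevis and 0.331 and 0.513 TPM in X. tropicalis. eomes, a T-box factor of mesendoderm, was at 3.33 and 6.23 TPM against 4.47 and 0.883 TPM, and t, which encodes Brachyury, was at 1.85 and 1.67 TPM against 1.37 and 0.0710 TPM. The organizer gene gsc was at 1.62 and 3.58 TPM in te × ls against 1.02 and 0 TPM in X. laevis in one of its transcripts. Another gsc transcript was at 2.09 and 2.485 TPM in te × ls against 5.53 and 0.775 TPM in X. laevis, where the X. laevis mean was the higher. The forkhead factor foxa1 was at 2.07 and 3.79 TPM against 1.27 and 0.227 TPM, and the neural factor sox1 at 2.15 and 3.02 TPM against 0.625 and 0.184 TPM. Most of them missed the limit in X. laevis replicate 3, and the part of the difference between the X. laevis libraries in this was not tested.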

How the results depend on the processing

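The number of members called higher in te × ls than in X. tropicalis was 0 and remained 0 without a filter and with a filter at 5 TPM. It was 214 and 26 with pseudocounts of 0.1 and 0.5, 129 with all 4 groups in 1 fit, 174 without the mean trend, 355 when p-values were adjusted within X. laevis transcripts, and 0 to 30 with 1 library left out. With the replicate block it was 304. The labels do not tie a replicate number to a batch, so the numbers are not known to pair libraries. Same-numbered te × ls and X. tropicalis libraries deviated together (r = 0.842 across transcripts tested, 0.335 across members). Same-numbered te × ls and X. laevis libraries did not (r = -0.02). Fits with 1 library left out assume that the lone library of a group varies like the other group. Members called lower than X. laevis numbered 15678 and 13024 to 15769 under the alternatives that kept all libraries, 15769 with the replicate block, and 549 to 15689 with 1 library left out, the low values because 669 members then passed the filter.

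The count of 65 at a ratio of 0.5 or more became 15 with members at 5 TPM in both X. laevis libraries, 28 by the lower and 119 by the higher of the ratios within replicate numbers, 46 to 105 with 1 library left out, and 64 to 67 under the other backgrounds. The count of 14615 under 0.01 moved to between 12359 and 15191. Several log2 differences from X. laevis that were not called changed sign when 1 library was left out. They ran from -0.23 to 0.89 for irx1, from -0.91 to 0.71 for sox2, from -0.86 to 0.24 for bmp4, from -0.90 to 0.22 for ptf1a, from -1.02 to 0.022 for sox17a, from -0.92 to 0.055 for tfap2a, from -1.03 to 0.47 for id3, from -1.09 to 0.045 for zic1 and from -1.37 to 0.060 for ventx2. The highest value of each came without X. laevis replicate 1 and the lowest without X. laevis replicate 3; without te × ls replicate 1 the values for sox2 and id3 were also positive, at 0.40 and 0.022. Of the named transcripts' differences from X. laevis, 20 values became calls and 1 lost its call, most with 1 library left out. The cause was not tested. Depth limits what can be said of the members near 0. Reads in X. tropicalis replicate 3 were estimated, from 36.8% of 19 transcripts, at 0.362 times those in X. laevis replicate 1.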
